A study of Homo sapiens with 4 samples.

Results

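DNA damage repair genes were read in SNU638 cells, an established line of human gastric cancer, with and without knockdown (KD) of ACTL6A. The set was a list of 53 genes of 7 pathways, chosen by name and not by their level on these arrays. Earlier results of these data were known when it was chosen. The pathways were nucleotide excision repair, homologous recombination, the Fanconi anaemia pathway, end joining, mismatch repair, base excision repair and damage signalling. A gene was followed through the probe sets that carried its symbol and no other, a probe set being the group of oligonucleotides on the array that reads 1 transcript. Of the 53 genes, 48 had such a probe set, 113 probe sets in all, among 19775 genes on the array with a probe set of this kind. BRCA2, RBBP8, FANCA, FANCD2 and PMS2 were not analysed here. XRCC3, a recombinase paralogue that acts in homologous recombination, lay below the signal threshold for testing with log2 signals of 2.74 and 3.02 in scramble cells and 2.69 and 3.90 in sh-ACTL6A cells. The other 47 genes were tested among 12286 genes.

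RNA came from cells infected with pLKO.1 lentivirus carrying a scrambled short hairpin RNA (scramble, 2 arrays) or a hairpin RNA against ACTL6A (sh-ACTL6A, 2 arrays). Infected cells were selected with puromycin for several days, per the protocol that all 4 arrays share. The labels describe neither single clones nor separate cultures within a group, so a p-value here reflects no more than the array-to-array spread, possibly technical in origin. A pair of hairpins is named in the protocol, and the paper's methods describe a further hairpin against ACTL6A. Which of them the sh-ACTL6A arrays carried, and whether both arrays carried the same hairpin, is not given.

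Each repair pathway answers a different kind of lesion. Nucleotide excision repair cuts out a short strand around a bulky adduct or an ultraviolet photoproduct, base excision repair removes single damaged bases, and mismatch repair corrects errors of replication. Breaks of both strands are rejoined directly by end joining or copied from the sister chromatid by homologous recombination. The Fanconi anaemia pathway unhooks strands that are cross-linked to each other, which is among the lesions that platinum drugs make. ACTL6A is an actin-related subunit of the BAF, INO80 and TIP60 chromatin complexes, which open or modify chromatin at genes and also at sites of damage. The comparison of sh-ACTL6A with scramble asks whether transcripts of the repair machinery differ when this subunit is reduced.

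Promoter sequence is given first, as a feature that the choice of the list did not use. Windows from 250 bases before to 50 bases after the start of transcription were taken from RefSeq (GRCh38.p14), which held 73 windows for 49 of the 53 genes. FANCI, NBN, PRKDC and XRCC5 were not among them. These windows were rich in CpG dinucleotides, with a median of 25 per window against 14 over all 35116 windows, and their median GC content was 64.3% against 58.7%. A TATAAA box stood in 1.37% of them, that of RAD52, against 11.5% of all windows, and CCGGAAG, the core bound by ETS factors, in 24.7% against 10.3%. The CCAAT box stood in 45.2% against 34.6%. E2F-type sites, which bind the factors that drive S-phase genes, were searched as TTTGGCGC, TTTCCCGC, TTTGCCGC or TTTCGCGC, and were found in 15.1% against 3.31%. Each of these strings, like CCGGAAG, contains a CpG, and none of the shares was adjusted for base composition. The core of the antioxidant response element, TGACNNNGC, the site of NRF2, was found in 11.0% against 13.3%. All motifs were searched on both strands, and the windows of 1 gene can overlap.

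The stretches below show an E2F-type site (in capitals) in 4 promoters whose genes were tested, each with 30 bases written in the direction of transcription.
XPC E2F-type site, chr3:14178822-14178851, minus strand: cctgcgcccTTTCCCGCctctcgcgagaac
UNG E2F-type site, chr12:109098098-109098127, plus strand: gagggaggtttTTTGCCGCgaaaagaccac
MSH3 E2F-type site, chr5:80654534-80654563, plus strand: gcgcggtcaagTTTGGCGCgaaattgtggc
FANCC E2F-type site, chr9:95317737-95317766, minus strand: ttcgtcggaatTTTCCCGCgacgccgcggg

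XPC and MSH3 also held an antioxidant response element core (in capitals), and in MSH3 it overlapped the E2F-type stretch and lay on the opposite strand.
XPC antioxidant core, chr3:14178668-14178697, minus strand: tttaggggcgTGACTAGGCctccaacgaag
MSH3 antioxidant core, chr5:80654524-80654553, plus strand: acagcagaacGCGCGGTCAagtttggcgcg

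The 7 tested genes with an E2F-type site (FANCC, MSH3, MSH6, UNG, XPC, XRCC2 and XRCC6) differed between groups by -0.15 to 0.13 on the log2 scale, with 2 above 0 and 5 below. The 4 with an antioxidant core (ERCC3, ERCC8, MSH3 and XPC) lay between -0.34 and 0.13, with 2 on each side of 0. A match describes the letters of the window only.

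ACTL6A was checked before the repair genes. Its log2 signal was 11.92 and 11.82 in scramble cells and 10.16 and 10.32 in sh-ACTL6A cells. The groups did not overlap, and the difference of -1.63 ± 0.14 (SE, 2 arrays per group) left 0.323 of the scramble signal (limma adjusted p = 0.0408). It was the 1 gene of 12286 that passed an adjusted p of 0.05 (0.00814%). The size held under every alternative (-1.71 to -1.55). The call was lost without the intensity trend (limma adjusted p = 0.556), when dim genes were kept (0.0797) and once arrays were quantile normalised (0.0522). It was also lost with the unpaired t-test that the methods name for comparing groups, though not for the arrays (adjusted p = 0.844). Leaving out scramble replicate 1 or 2 also ended it (0.9996 and 0.567). Without sh-ACTL6A replicate 1 or 2 the number of genes called became 401 or 335, and no repair gene was among them.

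None of the 47 repair genes passed the limma test at an adjusted p of 0.05, nor did any at an unadjusted p of 0.05, a level that 5.5% of all tested genes reached. Adjusted p ranged from 0.918 to 0.998. Differences ran from -0.34 for ERCC8 to 0.35 for ERCC6 on the log2 scale, with 25 genes above 0 and 22 below. Their median was 0.0084, against 0.0090 over all tested genes, and the median size of a difference was 0.105 against 0.139. Both sh-ACTL6A arrays were above both scramble arrays for 6 genes (12.8%), against 19.3% of all tested genes, and below both for 7 genes (14.9%), against 15.4%. In these bulk samples fewer cells of a kind and less RNA per cell cannot be told apart.

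How large a difference could have been missed, judged by the array-to-array spread alone, is given by the 95% intervals. For 27 of 47 repair genes (57.4%) the whole interval lay within 0.5 of 0 on the log2 scale, that is between 0.707 and 1.41 times the scramble level, against 34.8% of all tested genes. The repair genes had a median log2 signal of 10.27 and all tested genes one of 9.54. The interval reached farthest down for ERCC8 (0.571 of the scramble level) and farthest up for ERCC6 (1.83 times). Precision was limited by having 2 arrays in each group, and an exact permutation test of 1 gene could not give a 2-sided p below 0.333.

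**Figure D1:**
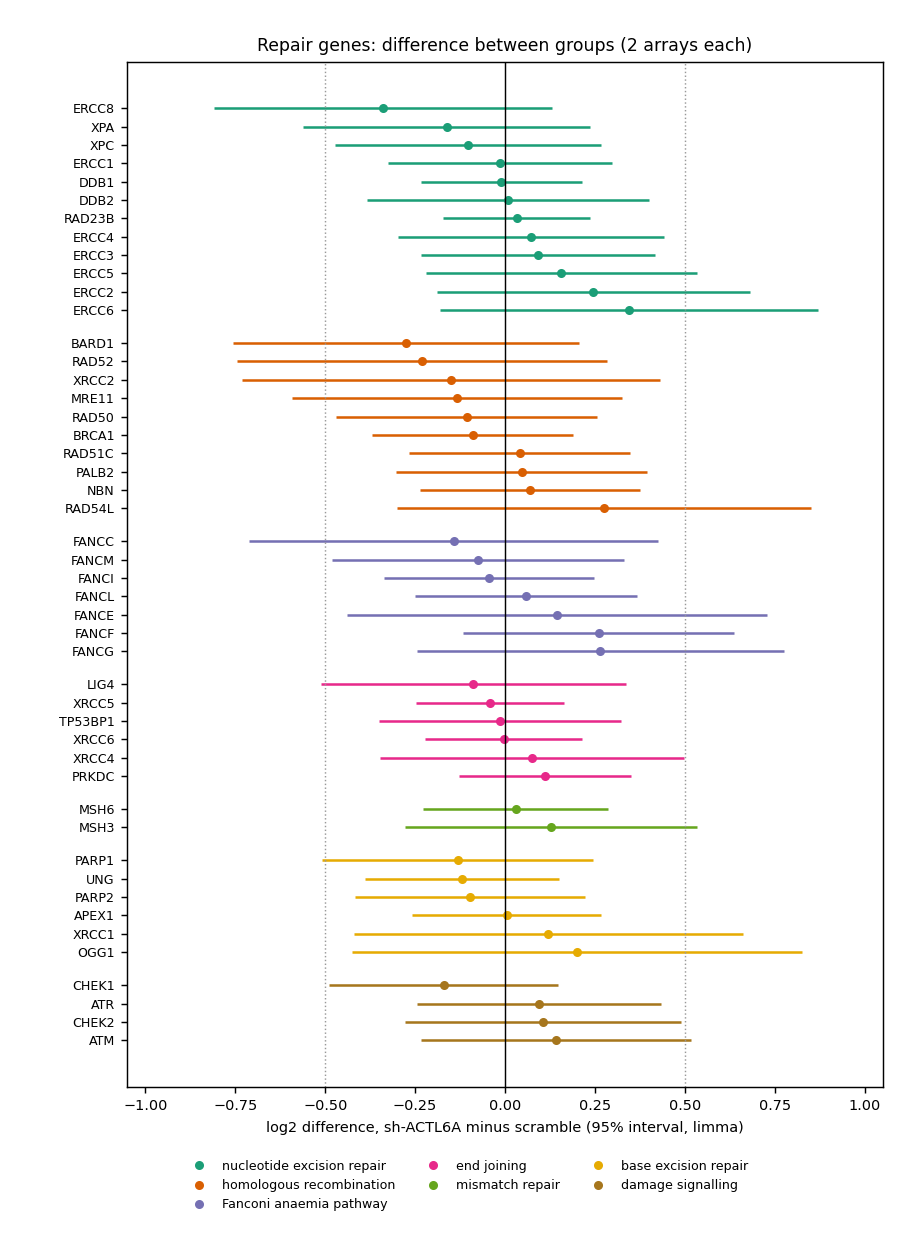
Difference in log2 signal, sh-ACTL6A minus scramble, for each of the 47 tested repair genes by pathway. Points are the differences of the means of 2 arrays per group and bars the 95% interval from limma; every bar crosses 0, and dotted lines mark 0.5 on either side.

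Damage signalling was represented by 4 tested genes, the kinases that sense breaks and stalled forks and those that pass the signal to the cell cycle. Their median difference was 0.10, with 3 above 0 and 1 below, and the medians of the single sh-ACTL6A arrays against the scramble mean were 0.10 and -0.0098. CHEK1, the checkpoint kinase activated by ATR, read 11.37 and 11.17 in scramble cells and 11.09 and 11.11 in sh-ACTL6A cells. Both sh-ACTL6A values were lower without overlap, by a mean of -0.17 ± 0.14 (SE, adjusted p = 0.941). ATM, the kinase recruited to double-strand breaks, read 10.09 and 10.01 against 10.33 and 10.05, so that sh-ACTL6A replicate 1 stood high and replicate 2 lay within the scramble range (0.14 ± 0.16). ATR, which responds to single-stranded DNA at stalled forks, read 10.80 and 10.82 against 11.02 and 10.78, with sh-ACTL6A replicate 1 above and replicate 2 just below both scramble values (0.09 ± 0.15). CHEK2, the kinase downstream of ATM, read 9.68 and 9.84 against 9.76 and 9.98, and its groups overlapped (0.11 ± 0.16).

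Homologous recombination had 10 tested genes, with a median difference of -0.10, 4 above 0 and 6 below. The median turned to 0.041 with the probe sets of each gene averaged. Those averages took in probe sets below the signal threshold, of RAD52 (1.11 and -0.47), MRE11 (0.72) and NBN (-1.55). BARD1, the partner of BRCA1 in its ubiquitin ligase, read 11.01 and 10.62 in scramble cells and 10.31 and 10.77 in sh-ACTL6A cells. The groups overlapped, both were widely spread, and the difference was -0.27 ± 0.21 (SE, adjusted p = 0.935). It was -0.04 without sh-ACTL6A replicate 1, the lowest array, and -0.08 without scramble replicate 1, the highest. Without sh-ACTL6A replicate 2 or scramble replicate 2 it was -0.51 (adjusted p = 0.174) or -0.47. BRCA1 itself read 11.61 and 11.60 against 11.53 and 11.49. Its sh-ACTL6A values were lower without overlap, but by only -0.09 ± 0.12 (adjusted p = 0.962). PALB2, which bridges BRCA1 to BRCA2, differed by 0.05.

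Of the genes that act on the recombinase filament, RAD54L, a motor protein that helps the strand invade its template, read 8.33 and 9.03 against 8.98 and 8.93. Scramble replicate 1 was the low array, the groups overlapped, and the difference was 0.27 ± 0.25 (adjusted p = 0.941). RAD52, which anneals single strands, read 7.76 and 7.86 against 7.47 and 7.69, lower without overlap (-0.23 ± 0.22, adjusted p = 0.945). The recombinase paralogues XRCC2 and RAD51C differed by -0.15 and 0.04, the first without overlap. XRCC2 was nearly equal in scramble replicate 2 (7.167) and sh-ACTL6A replicate 2 (7.165). The MRE11, RAD50 and NBN proteins form the complex that holds and trims broken ends. NBN read 11.95 and 11.75 against 11.83 and 12.00 and its groups overlapped (0.07 ± 0.13), and MRE11 and RAD50 differed by -0.13 and -0.11, also with overlap.

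The Fanconi anaemia pathway had 7 tested genes with a median difference of 0.06, 4 above 0 and 3 below. The single sh-ACTL6A arrays differed here, with medians of 0.14 and -0.06 against the scramble mean. FANCF, an adaptor of the core complex that ubiquitylates FANCD2 and FANCI, read 9.52 and 9.43 in scramble cells and 9.84 and 9.64 in sh-ACTL6A cells. It was higher without overlap, by 0.26 ± 0.16 (adjusted p = 0.918). FANCG, another core subunit, read 8.41 and 8.90 against 8.80 and 9.05 and its groups overlapped (0.27 ± 0.22, adjusted p = 0.941).

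FANCC and FANCE, which bind each other in the core complex, varied most of these genes between the sh-ACTL6A arrays. FANCC read 8.50 and 8.63 against 8.74 and 8.10, and FANCE read 8.44 and 8.54 against 8.28 and 8.98. In each gene 1 sh-ACTL6A array stood above and the other below both scramble arrays, with mean differences of -0.14 ± 0.24 for FANCC and 0.14 ± 0.25 for FANCE. FANCL, the ubiquitin ligase of the complex, read 11.88 and 11.77 against 12.00 and 11.76 (0.06 ± 0.13). FANCM, a translocase that finds the cross-link, differed by -0.08 and FANCI, which is ubiquitylated with FANCD2, by -0.05. The groups of all 3 overlapped.

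End joining had 6 tested genes whose differences all lay between -0.09 and 0.11, with a median of -0.0088 that became 0.014 after quantile normalisation and 0.023 after centring. For 5 of the 6 the 95% interval stayed within 0.5 of 0. PRKDC, the DNA-dependent protein kinase that Ku brings to broken ends, read 13.07 and 13.07 in scramble cells and 13.27 and 13.09 in sh-ACTL6A cells in its brightest probe set. Both sh-ACTL6A values were higher, sh-ACTL6A replicate 2 by only 0.02, and the difference was 0.11 ± 0.10 (adjusted p = 0.941). The Ku subunits XRCC5 and XRCC6 differed by -0.04 and -0.0034. XRCC5 read 14.07 and 14.08 against 14.12 and 13.95, a spread on both sides of the scramble values. LIG4, the ligase that seals the ends, read 10.22 and 9.85 against 9.85 and 10.05 with overlap (-0.09 ± 0.18). XRCC4, its partner, read 9.08 and 9.13 against 9.34 and 9.02, 1 array above and 1 below the scramble values (0.08 ± 0.18). TP53BP1, which shields ends from trimming, differed by -0.014.

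Nucleotide excision repair was the largest group, with 12 tested genes, 7 above 0 and 5 below, and a median of 0.02. It held both ends of the range. ERCC8, the CSA subunit of a ubiquitin ligase that acts where RNA polymerase has stalled, read 10.48 and 10.40 in scramble cells and 10.38 and 9.82 in sh-ACTL6A cells. It was lower without overlap, by -0.34 ± 0.20 (95% interval -0.81 to 0.13, adjusted p = 0.918). Nearly all of this was sh-ACTL6A replicate 2, since the difference was -0.06 with replicate 1 alone and -0.62 with replicate 2 alone (adjusted p = 0.0543). ERCC6, the CSB ATPase that works with ERCC8 at stalled polymerase, read 7.57 and 7.37 against 7.72 and 7.91. It was higher without overlap, by 0.35 ± 0.23 (95% interval -0.18 to 0.87, adjusted p = 0.927).

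ERCC2 and ERCC3 are the XPD and XPB helicases of the general factor TFIIH, which opens the strands around the lesion. ERCC2 read 8.16 and 8.23 against 8.38 and 8.49, higher without overlap (0.25 ± 0.19, adjusted p = 0.941), and ERCC3 was also higher without overlap, by 0.09. ERCC5, the XPG nuclease that cuts on the 3′ side, read 9.35 and 9.22 against 9.40 and 9.48, again without overlap (0.16 ± 0.16). The 5′ nuclease is made of ERCC1 and ERCC4, which differed by -0.015 and 0.07 with overlap. Among the proteins that find the damage, XPA was lower without overlap by -0.16, XPC differed by -0.10, and the DDB1 and DDB2 subunits of the ultraviolet-damage sensor by -0.010 and 0.0084. RAD23B, the stabilising partner of XPC, read 13.43 and 13.50 against 13.47 and 13.51, with the smallest SE of the set (0.03 ± 0.09).

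Base excision repair had 6 tested genes, 3 above 0 and 3 below, with a median of -0.05. UNG, the glycosylase that removes uracil, read 11.98 and 11.92 in scramble cells and 11.80 and 11.85 in sh-ACTL6A cells. It was lower without overlap, by -0.12 ± 0.12 (adjusted p = 0.945). PARP1, which marks strand breaks with poly(ADP-ribose), read 11.62 and 11.84 against 11.41 and 11.78 with overlap (-0.13 ± 0.16). PARP2, its relative, read 12.11 and 11.94 against 12.05 and 11.79, and these groups overlapped too (-0.10 ± 0.14). OGG1, the glycosylase for 8-oxoguanine, the main oxidised base, read 8.50 and 7.88 against 8.16 and 8.62, a spread wider than the difference of 0.20 ± 0.27. APEX1, which cuts at the site left without a base, read 12.53 and 12.52 against 12.62 and 12.43 (0.0041 ± 0.11), and the scaffold XRCC1 differed by 0.12. Mismatch repair was read through 2 genes only, the alternative subunits of the dimers that recognise mismatches. MSH6 read 12.18 and 12.11 against 12.16 and 12.19 (0.03 ± 0.11), and MSH3 read 9.52 and 9.58 against 9.84 and 9.51 (0.13 ± 0.17). The groups overlapped for both.

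**Figure D2:**
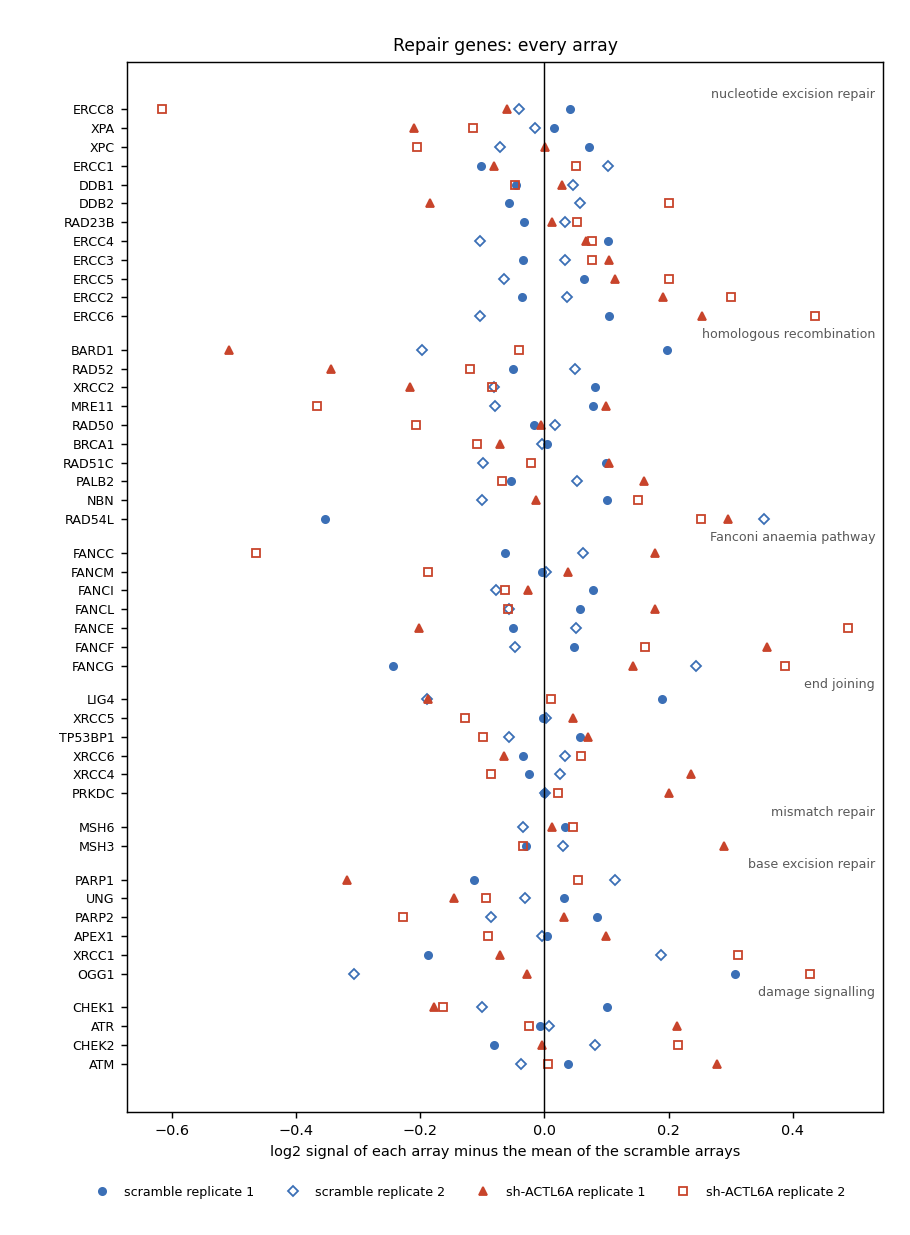
Log2 signal of each of the 4 arrays minus the mean of the 2 scramble arrays, for the 47 tested repair genes by pathway. Filled circles and open diamonds are the scramble arrays and triangles and open squares the sh-ACTL6A arrays; in ERCC8 the array that stands apart is sh-ACTL6A replicate 2, at -0.62, while in BARD1 both groups are spread, with scramble replicate 1 the highest array and sh-ACTL6A replicate 1 the lowest, at -0.51.

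A gene on this array can have several probe sets that read different stretches of its transcripts, and all 113 were examined in a fit over 54613 probe sets. None passed an adjusted p of 0.05 (limma, lowest adjusted p 0.960), and 2 had an unadjusted p under 0.05, against 5.01% of all probe sets. Both were dim. The 93 probe sets above the signal threshold of 5.63 differed by -0.62 to 0.41, with a median SE of 0.16. Of these, 9 were higher without overlap, against 18.3% of all probe sets above the threshold, and 15 were lower, against 15.1%. The 20 below the threshold, from 16 genes, ran from -1.55 to 3.71 with a median SE of 0.82, and 7 of them differed by at least 1.

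The largest value belonged to a dim probe set of PRKDC. It read 1.62 and 1.72 in scramble cells and 5.06 and 5.71 in sh-ACTL6A cells, a difference of 3.71 ± 0.79 (limma unadjusted p = 0.003, adjusted p = 0.960). The other 2 probe sets of PRKDC, both bright, differed by 0.11 and -0.05. Among all 27306 probe sets below the threshold, 70 (0.256%) differed by as much in either direction. That share is not a p-value, because the probe set was picked as the largest difference of the 113. Averaged over its 3 probe sets, PRKDC differed by 1.26 (unadjusted p = 3.69e-05, adjusted p = 0.134), through this probe set. The other dim probe set with an unadjusted p under 0.05 was one of FANCC, which read 0.10 and 3.19 against 5.24 and 4.17 (3.06 ± 1.21), while the bright one gave -0.14. A dim probe set of NBN went the other way, 5.90 and 6.23 against 5.25 and 3.77 (-1.55 ± 0.65), while its 4 bright ones lay between -0.01 and 0.16.

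**Figure D3:**
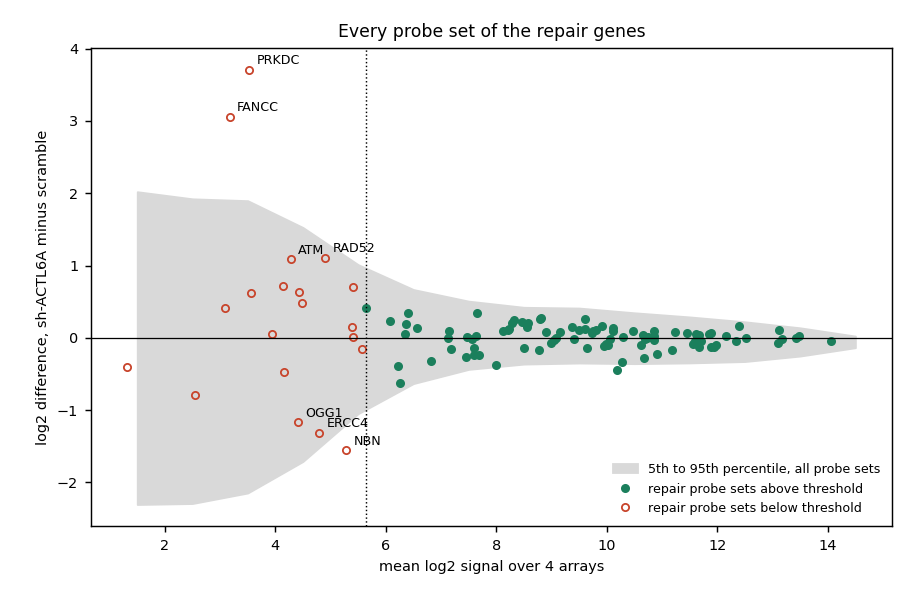
Log2 difference, sh-ACTL6A minus scramble, against mean log2 signal over the 4 arrays for the 113 probe sets of the repair genes; the dotted line is the signal threshold of 5.63. The grey band spans the 5th to 95th percentile of all probe sets in bins of signal; on the dim side PRKDC (3.71) and FANCC (3.06) lie above it and NBN (-1.55) below it, and the probe sets below the threshold with a difference of at least 1 are named.

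Above the threshold, 27 repair genes had at least 2 probe sets. In 11 of them all differences had the same sign, and in 16 (59.3%) they did not, against 48.4% of 6028 genes on the array. The widest gap was in FANCM, whose 4 bright probe sets ran from -0.62 to 0.09 with every group overlapping. In ERCC6 the probe sets opposed each other without overlap. The brighter was higher in sh-ACTL6A (0.35), and the other read 7.70 and 7.46 in scramble cells against 7.40 and 7.23, a difference of -0.26 ± 0.24. ATM ran from -0.32 to 0.19 over 4 bright probe sets, 2 of them lower without overlap although the brightest gave 0.14. MRE11 ran from -0.13 to 0.24. BRCA1 had the same kind of split as ERCC6, chosen for mention after its values were seen, with -0.09 in the brighter and 0.22 in the other, which read 8.33 and 8.38 against 8.63 and 8.51.

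ERCC8 and CHEK1 were looked at in the same way, after their values were seen. In ERCC8, 3 of 4 probe sets were lower without overlap, by -0.34, -0.44 and -0.39, and the fourth gave -0.0058. The first and the second were low on sh-ACTL6A replicate 2 (9.82 and 9.53 against 10.38 and 10.38 on replicate 1). The probe set at -0.39 was not, with 5.89 on replicate 1 and 6.15 on replicate 2. In CHEK1, 2 of 3 bright probe sets were lower without overlap, by -0.17 and -0.22, and the third gave 0.0068.

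**Figure D4:**
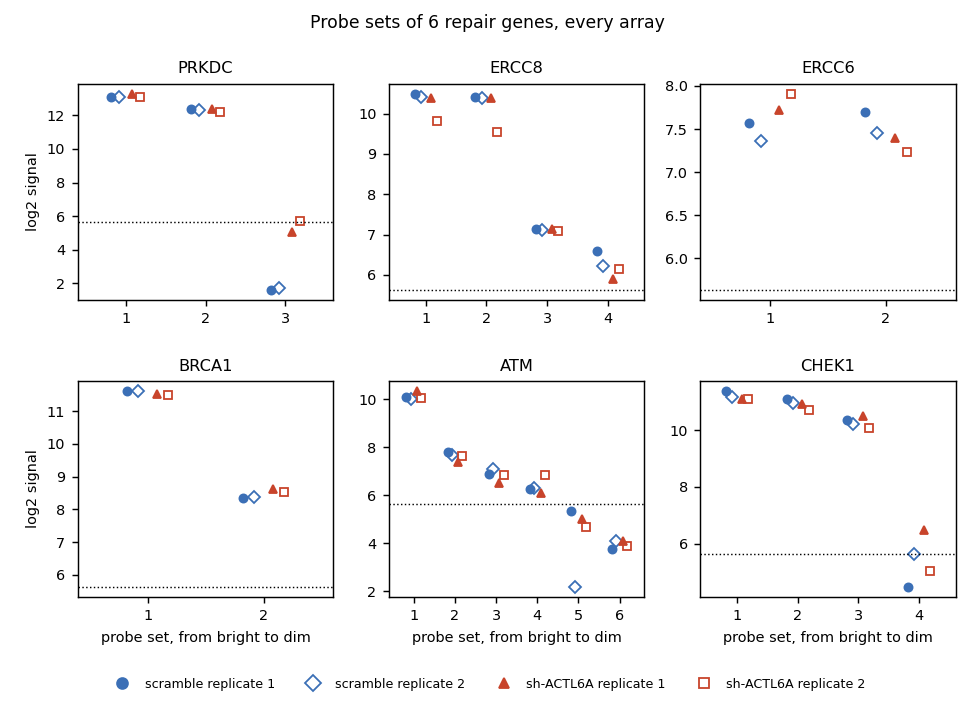
Log2 signal of every probe set on each array for 6 repair genes, ordered from bright to dim along the horizontal axis, with the signal threshold of 5.63 dotted. In PRKDC the dim probe set lay at 1.62 and 1.72 in scramble cells and at 5.06 and 5.71 in sh-ACTL6A cells, while in ERCC6 and BRCA1 the 2 probe sets differed between groups in opposite directions.

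A further 104 repair genes of the same pathways, outside the 53, were examined for comparison. Of these, 94 were tested, none passed an adjusted p of 0.05, and 46 were above 0 and 48 below. Against 5.5% of all tested genes, 5 of the 94 had an unadjusted p under 0.05 (limma). POLB, the polymerase that fills the gap in base excision repair, had the smallest p of them. It read 10.66 and 10.59 in scramble cells and 11.29 and 11.13 in sh-ACTL6A cells, higher without overlap by 0.59 ± 0.14 (limma unadjusted p = 0.00325, adjusted p = 0.547). APTX, which clears failed ligation products in the same pathway, was lower, 10.98 and 10.95 against 10.41 and 10.71 (-0.41 ± 0.15, adjusted p = 0.859). The median of the 14 other base excision repair genes was -0.04.

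CDK7, the kinase of TFIIH, read 12.09 and 12.08 against 11.80 and 11.70 (-0.33 ± 0.12, adjusted p = 0.846), and GTF2H5, a small TFIIH subunit, differed by 0.21, among 16 other nucleotide excision repair genes with a median of 0.04. RAD51AP1, a cofactor of the recombinase, differed by 0.38 and the helicase BRIP1 by 0.30, among 22 other homologous recombination genes with a median of -0.03. POLL, a polymerase of end joining, read 5.52 and 5.64 against 6.52 and 6.63, close to the threshold (0.99 ± 0.35, adjusted p = 0.846). The shieldin subunit SHLD2 differed by 0.24, and the 9 other end joining genes had a median of 0.13. The other lists held no gene with an unadjusted p under 0.05. The first of them had 9 Fanconi pathway genes (median 0.04), with the FANCD2 deubiquitylase cofactor WDR48 at -0.46 and the nuclease scaffold SLX4 at 0.30. Next came 9 mismatch repair genes (median -0.11), with the meiotic MutS homologue MSH4 at 0.70 and the sliding clamp PCNA at -0.19. The last had 15 signalling genes (median 0.05), with the histone variant H2AX at 0.33 and the phosphatase CDC25A at 0.37.

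Over the probe sets above the signal threshold, correlations between any 2 arrays were 0.977 to 0.983. The 20 proliferation genes, all tested, had a median difference of 0.02, with 10 above 0 and 10 below. Of 8 epithelial markers 7 were above the signal threshold, against 2 of 10 leukocyte (CSF1R and ITGAM), 3 of 8 fibroblast (COL1A1, DCN and THY1) and 1 of 6 endothelial markers (PECAM1). Summed linear signal of the epithelial markers was 46945 and 55003 in scramble cells and 40239 and 47038 in sh-ACTL6A cells. The summed leukocyte, fibroblast and endothelial signals lay between 139 and 664 on all 4 arrays. The log2 gap between 3′ and 5′ probe sets of ACTB, a sign of RNA integrity, was 1.63 and 0.78 in scramble cells. In sh-ACTL6A cells it was 1.21 and 0.78, so it was higher on replicate 1 of both groups. The gap of GAPDH was smaller, 0.29 and 0.10 in scramble cells and 0.22 and 0.07 in sh-ACTL6A cells, also higher on replicate 1. The part of RNA integrity in the differences was not tested.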

How the data were processed

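The 4 single-colour Affymetrix arrays (2 scramble, 2 sh-ACTL6A) were grouped by their labels. Per array, 54675 log2 signals were deposited by the authors. The submitters' processing notes name MAS5 (version not given in the sources used here), which summarises and scales each array alone. The mean linear signal without the outer 2% was 500.0 on every array, and values were used as deposited. MAS5 signals of dim probe sets are noisy, and detection calls were not used here.

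Probe sets were named by GEO's platform annotation. Of the 54613 that are not controls, 1801 with several symbols and 11721 with none were not named. A gene was its probe set with the highest mean, tested if that mean reached the median of the non-control probe sets (5.63). Differences are sh-ACTL6A minus scramble, from limma 3.58.1 in R 4.3.3 (lmFit, eBayes with intensity trend, 7.65 moderated degrees of freedom), 2-sided, with Benjamini-Hochberg adjustment over all genes tested and a threshold of 0.05. A second fit took all 54613 probe sets (6.63 degrees of freedom). Standard errors are those of these fits.

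Members, lists, motifs and tests were chosen with earlier results of these data known. Every tested gene was given its difference. Values by array were given, per pathway, for the 4 genes with the smallest unadjusted p and the brightest gene. For XRCC2 only the replicate 2 arrays were given. Members below the threshold were named, as were up to 4 genes whose bright probe sets differed in sign, by the widest gap, and 2 further repair genes per list by the smallest unadjusted p. The replicate numbers were not used as pairs. There were 13 alternatives, namely leaving out each array in turn, median centring, quantile normalisation, testing without a filter, a filter at the 75th percentile, the mean of a gene's probe sets, an offset of 16 on the linear scale, no intensity trend, a block for the replicate number, and the methods' t-test. That t-test is the unpaired one that the methods name for comparing groups, and they name no such test for the arrays. The code was tested on simulated data.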

Additional observations from a re-analysis of the deposited data

How the results depend on the processing

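No repair gene passed an adjusted p of 0.05 under any of the 13 alternatives, and the lowest adjusted p with all arrays kept was 0.134, for PRKDC with all its probe sets averaged. The number of genes called was 0 after quantile normalisation, with no filter, without the intensity trend and with the methods' t-test, and 0 to 401 with 1 array left out. ACTL6A then differed by -1.64 (quantile), -1.63 (no filter, no trend, t-test) and -1.71 to -1.55 (arrays left out), with adjusted p of 0.0522, 0.0797, 0.556 and 0.844 in the first 4. With the replicate number as a block 2 genes and 3 probe sets were called, none of them a repair gene, against 1 and 0 without it. Deviations from the group means of arrays with the same number had r = 0.10 across probe sets above the signal threshold, over only 2 pairs. With the methods' test BRCA1 alone of the repair genes had an unadjusted p under 0.05, and its adjusted p was 0.900. The median of all genes was 0.0090 as deposited, 0.0032 after quantile normalisation and 0.041 after centring.

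The nucleotide excision repair median became 0.052 with centring, and the homologous recombination median became -0.024 with the stricter filter and 0.041 with probe sets averaged. The nucleotide excision repair median became -0.00090 with the stricter filter and -0.00044 with averaging, and that of base excision repair became -0.109 and -0.104, from -0.047. The end joining median, -0.0088 with 2 genes above 0 and 4 below, became 0.014 after quantile normalisation, 0.023 with centring and 0.0065 with probe sets averaged, each with 4 above and 2 below. With 1 array left out, medians ran from -0.015 to 0.066 (nucleotide excision repair), -0.092 to -0.0096 (homologous recombination), -0.059 to 0.14 (Fanconi anaemia pathway), -0.038 to 0.059 (end joining), 0.0060 to 0.15 (mismatch repair), -0.063 to -0.019 (base excision repair), -0.0098 to 0.10 (damage signalling) and -0.026 to 0.027 (all). Of 30 genes with values by array, 7 changed sign with all arrays kept. XRCC5 became 0.0011 after quantile normalisation and 0.0080 with probe sets averaged. Averaging also gave RAD52 0.10, BRCA1 0.063, NBN -0.25, MSH6 -0.13, OGG1 -0.37 and CHEK1 0.082. The averages took in probe sets below the signal threshold. These differed by 1.11 and -0.47 in RAD52, -1.55 in NBN, -0.15 and -0.40 in MSH6, -1.17 in OGG1 and 0.71 in CHEK1. BRCA1 and XRCC5 had none below it. With 1 array left out 17 changed sign. The ranges were -0.00080 to 0.066 for RAD23B, -0.080 to 0.63 for RAD54L, -0.28 to 0.10 for LIG4, -0.031 to 0.17 for NBN, -0.0042 to 0.064 for MSH6, -0.11 to 0.51 for OGG1, -0.090 to 0.099 for APEX1, -0.059 to 0.18 for FANCL and -0.086 to 0.24 for XRCC4. They were -0.035 to 0.29 for MSH3, -0.32 to 0.053 for PARP1, -0.026 to 0.21 for ATR, -0.46 to 0.18 for FANCC, -0.20 to 0.49 for FANCE, -0.13 to 0.046 for XRCC5, -0.23 to 0.032 for PARP2 and -0.0042 to 0.22 for CHEK2. A lone array was taken to vary like the other group. Beyond the probe sets that entered the averages, the cause of these changes was not tested.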
